A study of Homo sapiens with 16 samples.

Results

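The genes described here are 10 early-response transcription factors and stress genes: FOS, FOSL1, FOSL2, JUN, JUNB, JUND, EGR1, ATF3, IER2 and IER3. They were taken by symbol from the deposited expression table, which lists 20271 genes. All 10 were found, and all 10 passed the filter on low values that left 10662 genes for testing. The genes were picked by name, with earlier results of these data known.

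Messenger RNA was sequenced from HCT116, an established human colon cancer line labelled as having wild-type p53. Cells in serum-containing medium received siRNA for 3 days, and some groups then received Nutlin-3 for 0.5 days more. The groups were p53+iASPP siRNA+nutlin, iASPP siRNA+nutlin, p53 siRNA+nutlin and CTR siRNA+nutlin, and the same siRNAs without nutlin. CTR siRNA without nutlin is the untreated control, there were 2 libraries per group and 16 in all, and every group shares the line and the siRNA procedure. Whether the replicates are separate cultures is not stated by the labels. The p-values below therefore measure only the spread between these libraries, which may be technical. The values are those of a single line, with depletion by siRNA rather than gene deletion.

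FOS and JUN family proteins pair through leucine zippers to form AP-1, a transcription factor that binds short palindromic sites. Many of these genes are immediate-early genes: growth factors and stress switch them on within minutes through MAP kinases acting on factors already present, such as SRF with its ternary complex partners. Nutlin-3 keeps MDM2 from binding p53 and so stabilises p53, while iASPP, encoded by PPP1R13L, is an inhibitor of p53. ATF3 is a stress-induced bZIP factor and a known p53 target.

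Promoter sequence is shown for 4 members. JUN, EGR1 and IER2 fell with nutlin in CTR siRNA cells, and JUND was a JUN relative that differed with iASPP siRNA. ATF3, which rose with nutlin, has 2 entries and its sequence is not printed. The sequences are the 250 bases before the start of the gene in the RefSeq promoter table (GRCh38.p14), written 5′ to 3′ on the strand of the gene, and 8 of the 10 members had an entry. Searched on both strands were the AP-1 motif TGANTCA, the cAMP response motif TGACNTCA, which is 1 base longer and cannot be matched by the same letters, and the CArG box, the sequence bound by SRF. Capitals mark the matches. EGR1 is at chr5:138465229-138465478 on the plus strand, IER2 at chr19:13150161-13150410 on the plus strand, JUN at chr1:58784048-58784297 on the minus strand and JUND at chr19:18281623-18281872 on the minus strand.
EGR1: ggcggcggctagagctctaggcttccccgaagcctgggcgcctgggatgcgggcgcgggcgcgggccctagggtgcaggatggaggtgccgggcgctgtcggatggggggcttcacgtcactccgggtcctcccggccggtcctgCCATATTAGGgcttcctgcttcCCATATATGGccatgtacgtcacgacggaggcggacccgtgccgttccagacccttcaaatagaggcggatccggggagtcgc
IER2: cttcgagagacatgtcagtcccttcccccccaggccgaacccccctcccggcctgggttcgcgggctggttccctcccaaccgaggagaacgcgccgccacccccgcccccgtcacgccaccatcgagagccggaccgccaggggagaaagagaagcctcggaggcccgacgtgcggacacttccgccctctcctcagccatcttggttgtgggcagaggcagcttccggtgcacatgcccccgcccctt
JUN: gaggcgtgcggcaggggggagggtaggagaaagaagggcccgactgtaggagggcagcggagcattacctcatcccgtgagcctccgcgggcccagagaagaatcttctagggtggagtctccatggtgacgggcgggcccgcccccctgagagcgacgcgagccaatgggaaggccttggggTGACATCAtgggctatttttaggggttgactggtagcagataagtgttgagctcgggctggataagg
JUND: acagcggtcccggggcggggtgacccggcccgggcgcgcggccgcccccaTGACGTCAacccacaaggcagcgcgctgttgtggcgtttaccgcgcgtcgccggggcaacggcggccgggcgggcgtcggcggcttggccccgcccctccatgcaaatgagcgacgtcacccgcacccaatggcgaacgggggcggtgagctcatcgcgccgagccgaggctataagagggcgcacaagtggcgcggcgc
The EGR1 window held 2 CArG boxes, which begin 105 and 83 bases before the start, and a CArG box was in 1.16% of all 35116 windows in the table. JUN held a cAMP response motif 67 bases before the start and JUND held 1 at 200 bases, against 6.87% of all windows. An ATF3 window, 1 of 2 entries for that gene, held the same motif 123 bases before its start. The AP-1 motif was in none of the members' windows and in 6.57% of all windows, and IER2 held none of the motifs. These are matches of letters within 250 bases, not measured binding.

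The libraries were checked before the members were read. PPP1R13L stood at 0.279 to 2.45 FPKM in the libraries with iASPP siRNA and at 6.88 to 18.9 FPKM in the others. Of 7 epithelial markers 6 were present, whereas 0 of 6 fibroblast, 0 of 4 endothelial and 0 of 3 hepatocyte markers reached a mean of 1 FPKM, and of 6 leukocyte markers only CD68 did. Absolute depth is not known, and replicate 2 was 4.26 to 6.50 times as deep as replicate 1 by the step size of low values. Genes at 100 FPKM or more differed between replicates by a median log2 of 0.0507 to 0.0699 in 5 groups, and by 0.180 to 0.274 in the p53 siRNA+nutlin, iASPP siRNA+nutlin and p53+iASPP siRNA+nutlin groups. The replicate 2 libraries of those 3 groups are called the diverging libraries. Called differences of members that use them are given with and without them. The spread between 2 replicates does not show which of them departs, so the name marks a choice made after the data were seen. In those 3 groups CDKN1A, the p53-induced cell cycle inhibitor, also differed between replicates. It was 47.4 and 107 FPKM in p53 siRNA+nutlin replicates 1 and 2, 83.1 and 141 with p53+iASPP siRNA+nutlin, and 1656 and 776 with iASPP siRNA+nutlin. The part of these library differences in the results was not tested.

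Expression is given as FPKM, which scales fragments to transcript length and library size and so allows levels of different genes to be set side by side. IER3 was the most abundant member at a mean of 379 FPKM over all libraries, in the 97.8 percentile of the tested genes, followed by FOSL1 at 127 FPKM. FOSL2 at 2.33 FPKM and JUN at 3.94 FPKM were the least abundant. Between the highest and the lowest group means the FPKM ratio was 4.90 for ATF3, 4.04 for EGR1, 3.03 for JUN, 2.95 for FOS, 2.12 for FOSL1, 2.08 for IER2, 1.93 for IER3, 1.72 for FOSL2, 1.68 for JUNB and 1.48 for JUND.

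**Figure D1:**
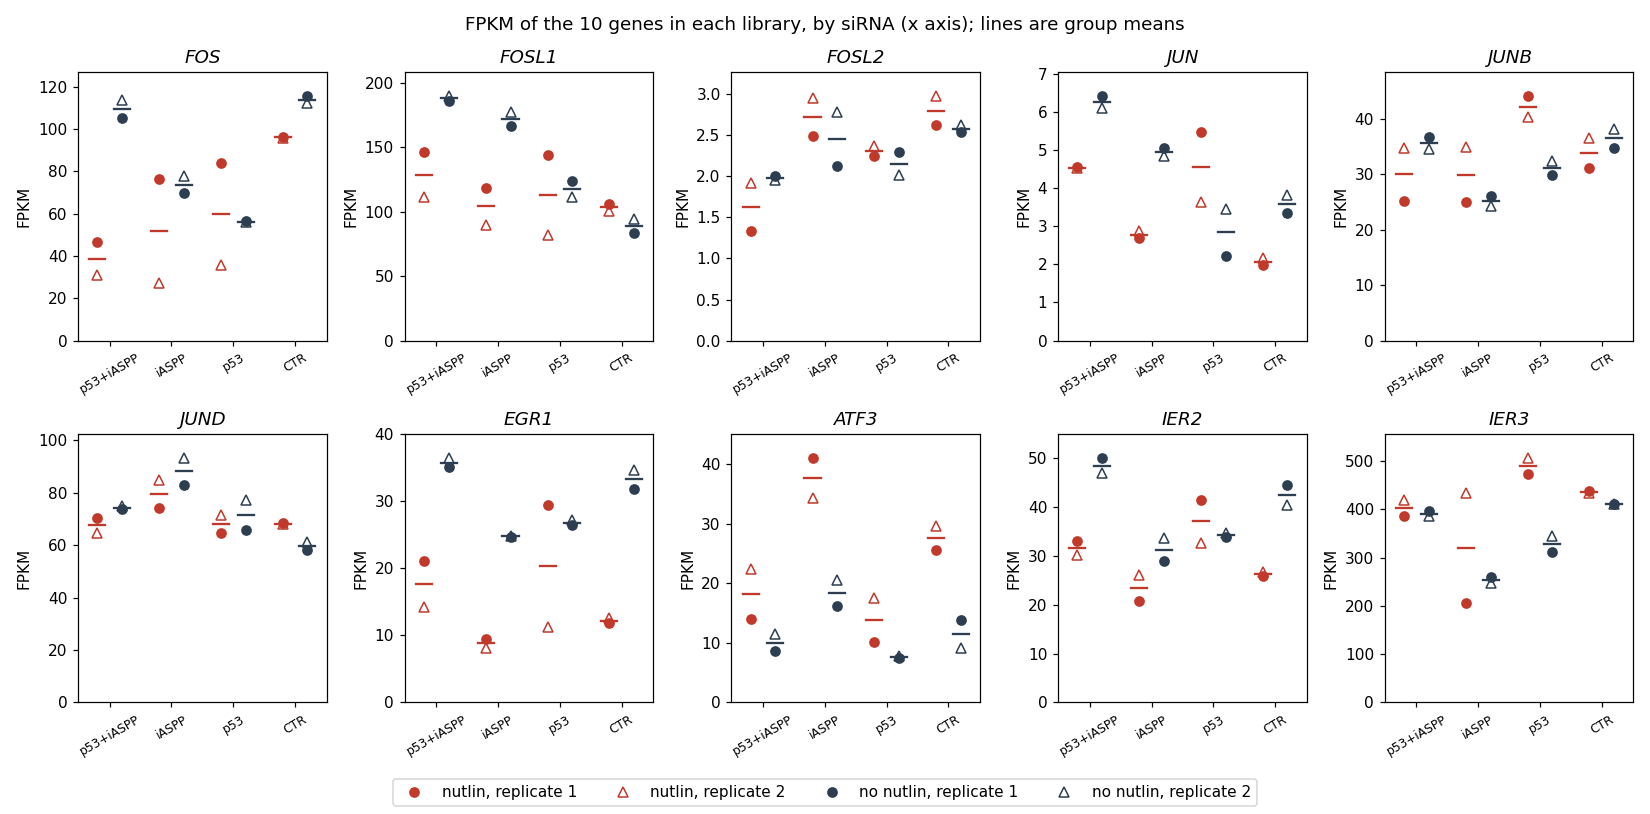
FPKM of each member (y axis, from 0) by siRNA (x axis), with nutlin in red left of no nutlin in dark blue; circles are replicate 1, triangles replicate 2 and lines group means. ATF3 is highest with iASPP siRNA+nutlin (41.1 and 34.3 FPKM), EGR1 is lowest there (9.49 and 8.18 FPKM), and FOS replicates lie far apart in that group (76.4 and 27.3 FPKM).

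FOS is the founding AP-1 partner of JUN and a classic immediate-early gene (GRCh38, GENCODE release 29, chromosome 14 from 75278774 to 75282230, plus strand). FOS stood at 46.4 and 30.9 FPKM in the libraries with p53+iASPP siRNA+nutlin, 76.4 and 27.3 FPKM with iASPP siRNA+nutlin, 83.7 and 35.9 FPKM with p53 siRNA+nutlin, and 96.3 and 95.7 FPKM with CTR siRNA+nutlin. Without nutlin FOS was 105 and 114 FPKM with p53+iASPP siRNA, 69.6 and 77.7 FPKM with iASPP siRNA, 56.5 and 55.9 FPKM with p53 siRNA, and 115 and 112 FPKM with CTR siRNA. FOS was thus lower with either single siRNA than with CTR siRNA in every library without nutlin, while with both siRNAs it overlapped the control. Under the test used throughout, limma on log2(FPKM + 1) with all 16 libraries in 1 fit and Benjamini-Hochberg adjustment over all tested genes, none of the FOS differences passed an adjusted p of 0.05. The log2 change with p53 siRNA against CTR siRNA was -1.005 ± 0.43 (SE, adjusted p = 0.357), and that with iASPP siRNA was -0.62 ± 0.43 (adjusted p = 0.378). The residual SD of FOS, 0.49 on the log2 scale, was the largest of the members, and its replicates differed by a log2 of -1.45, -1.20 and -0.57 in the 3 diverging groups, against -0.04 to 0.16 in the others. Without the diverging libraries the same log2 changes had adjusted p = 0.000478 for p53 siRNA and 0.000914 for iASPP siRNA, but the spread then came only from close pairs that may be technical. With each close pair averaged into 1 sample the spread came from the diverging pairs alone, and no member was called in any comparison. The share of all tested genes called in that setting is not given here. The loss therefore shows a dependence on the setting, not a trait of the members.

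FOSL1, which encodes the FRA-1 subunit and accumulates in cells with sustained ERK activity, is on chromosome 11 from 65892049 to 65900573, minus strand. FOSL1 stood at 146 and 112 FPKM with p53+iASPP siRNA+nutlin, 119 and 89.6 FPKM with iASPP siRNA+nutlin, 144 and 82.2 FPKM with p53 siRNA+nutlin, and 106 and 101 FPKM with CTR siRNA+nutlin. Without nutlin FOSL1 was 186 and 189 FPKM with p53+iASPP siRNA, 166 and 177 FPKM with iASPP siRNA, 124 and 112 FPKM with p53 siRNA, and 83.2 and 94.0 FPKM with CTR siRNA. The groups without nutlin did not overlap each other, with both iASPP-depleted groups on top. FOSL1 rose with iASPP siRNA to 172 ± 7.84 FPKM, against 88.6 ± 7.68 FPKM with CTR siRNA (mean ± SD, n = 2 each), a 1.94-fold FPKM ratio and a log2 change of 0.95 ± 0.23 (limma, adjusted p = 0.0308). In p53-depleted cells the log2 change of FOSL1 with iASPP siRNA was 0.67 ± 0.23 (adjusted p = 0.181). With nutlin, the log2 change of FOSL1 with iASPP siRNA in control cells was -0.00 ± 0.23, with a 95% interval of -0.50 to 0.50. The call of FOSL1 was lost with no filter on low values (adjusted p = 0.0624) and without either replicate of CTR siRNA, iASPP siRNA or p53+iASPP siRNA, at adjusted p = 0.0501 to 0.199.

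FOSL2, which encodes FRA-2, is on chromosome 2 from 28392448 to 28417312, plus strand, and was the least abundant FOS relative. FOSL2 stood at 1.33 and 1.92 FPKM with p53+iASPP siRNA+nutlin, 2.49 and 2.96 FPKM with iASPP siRNA+nutlin, 2.24 and 2.37 FPKM with p53 siRNA+nutlin, and 2.62 and 2.97 FPKM with CTR siRNA+nutlin. Without nutlin FOSL2 lay between 1.96 and 2.78 FPKM in all 8 libraries. None of the FOSL2 differences passed the threshold under the test used throughout. The nearest was p53 siRNA in iASPP-depleted cells with nutlin, where the log2 change was -0.51 ± 0.16 (adjusted p = 0.0506). Both libraries with the added p53 siRNA lay below both without it. That difference was called with a pseudocount of 0.1, under median-of-ratios scaling and with replicate number added as a block.

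JUN, the central AP-1 subunit that is regulated by JNK, is on chromosome 1 from 58780788 to 58784327, minus strand. Its promoter match is shown above. The printed window, from 58784048 to 58784297, lies inside this GENCODE span, because the RefSeq promoter table takes a start further downstream. JUN stood at 4.54 and 4.52 FPKM with p53+iASPP siRNA+nutlin, 2.69 and 2.87 FPKM with iASPP siRNA+nutlin, 5.47 and 3.62 FPKM with p53 siRNA+nutlin, and 1.98 and 2.15 FPKM with CTR siRNA+nutlin. Without nutlin JUN was 6.41 and 6.11 FPKM with p53+iASPP siRNA, 5.05 and 4.84 FPKM with iASPP siRNA, 2.23 and 3.45 FPKM with p53 siRNA, and 3.34 and 3.83 FPKM with CTR siRNA. The lowest group was CTR siRNA+nutlin and the highest was p53+iASPP siRNA, and neither overlapped its nearest neighbour. JUN fell with nutlin in CTR siRNA cells to 2.07 ± 0.12 FPKM, against 3.58 ± 0.35 FPKM without nutlin, a log2 change of -0.58 ± 0.18 (limma, adjusted p = 0.0370). In nutlin-treated cells JUN was higher with p53 siRNA, at 4.55 ± 1.31 FPKM, against 2.07 ± 0.12 FPKM with CTR siRNA, a log2 change of 0.84 ± 0.18 (adjusted p = 0.00790). Nutlin gave JUN a log2 change of 0.53 ± 0.18 in p53-depleted cells (adjusted p = 0.221), and this differed from its change with CTR siRNA by an interaction of 1.11 ± 0.26 (adjusted p = 0.0229). Those comparisons share libraries. JUN also rose with iASPP siRNA in p53-depleted cells without nutlin, to 6.26 ± 0.21 FPKM, against 2.84 ± 0.87 FPKM with p53 siRNA alone, a log2 change of 0.94 ± 0.18 (adjusted p = 0.0416).

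At these low levels the differences on log2(FPKM + 1) understate the FPKM ratio, which for JUN with nutlin in CTR siRNA cells was 0.576. The JUN fall with nutlin in CTR siRNA cells was lost under median-of-ratios scaling (log2 change -0.41, adjusted p = 0.122), with no filter (0.0624), and without either replicate of CTR siRNA, CTR siRNA+nutlin, iASPP siRNA or p53+iASPP siRNA (0.0534 to 0.168). The JUN difference with p53 siRNA under nutlin was lost without CTR siRNA+nutlin replicate 1 (adjusted p = 0.0596) or p53 siRNA+nutlin replicate 1 (0.0709), and without the diverging libraries it was 1.08 (adjusted p = 0.00428). The JUN interaction was lost without p53 siRNA replicate 1, p53 siRNA+nutlin replicate 1, or either replicate of CTR siRNA or CTR siRNA+nutlin (0.0567 to 0.0881), and without the diverging libraries it was 1.35 (adjusted p = 0.00727). The JUN rise with iASPP siRNA was lost with no filter (0.0663) and with replicate number added as a block. It was also lost without p53 siRNA replicate 1, and without either replicate of p53+iASPP siRNA, iASPP siRNA, CTR siRNA or CTR siRNA+nutlin.

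JUNB, a JUN relative with weaker activating power, is on chromosome 19 from 12791496 to 12793315, plus strand. It overlaps HOOK2 on the opposite strand, and whether reads were counted by strand is not given in the sources used here, so its values may include HOOK2 reads. JUNB stood at 25.2 and 34.8 FPKM with p53+iASPP siRNA+nutlin, 25.0 and 34.9 FPKM with iASPP siRNA+nutlin, 44.1 and 40.4 FPKM with p53 siRNA+nutlin, and 31.2 and 36.5 FPKM with CTR siRNA+nutlin. Without nutlin JUNB was 36.7 and 34.6 FPKM with p53+iASPP siRNA, 26.0 and 24.3 FPKM with iASPP siRNA, 29.9 and 32.4 FPKM with p53 siRNA, and 34.7 and 38.2 FPKM with CTR siRNA. Both iASPP siRNA libraries lay below both control libraries, with a log2 change of -0.52 ± 0.18 (adjusted p = 0.0914), and p53 siRNA+nutlin lay above every other group. None of the JUNB differences passed the threshold.

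JUND, the JUN family member that is expressed most steadily in many cell types, is on chromosome 19 from 18279760 to 18281622, minus strand. JUND stood at 70.4 and 64.8 FPKM with p53+iASPP siRNA+nutlin, 74.0 and 84.9 FPKM with iASPP siRNA+nutlin, 64.7 and 71.4 FPKM with p53 siRNA+nutlin, and 68.3 and 68.2 FPKM with CTR siRNA+nutlin. Without nutlin JUND was 73.8 and 74.8 FPKM with p53+iASPP siRNA, 83.1 and 93.2 FPKM with iASPP siRNA, 65.7 and 77.4 FPKM with p53 siRNA, and 58.3 and 61.0 FPKM with CTR siRNA. Every other group lay above CTR siRNA. JUND rose with iASPP siRNA to 88.1 ± 7.15 FPKM, against 59.7 ± 1.95 FPKM with CTR siRNA, a 1.48-fold FPKM ratio and a log2 change of 0.55 ± 0.12 (limma, adjusted p = 0.0194). The JUND call was lost without either replicate of CTR siRNA or iASPP siRNA (adjusted p = 0.0773 to 0.152). In p53-depleted cells the JUND change with iASPP siRNA was 0.06 ± 0.12, with a 95% interval of -0.20 to 0.31. The JUND difference between those backgrounds was -0.49 ± 0.16 and did not pass (adjusted p = 0.221).

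EGR1 is a zinc finger immediate-early factor and a direct read-out of SRF and ERK activity, on chromosome 5 from 138465490 to 138469315, plus strand. EGR1 stood at 21.1 and 14.2 FPKM with p53+iASPP siRNA+nutlin, 9.49 and 8.18 FPKM with iASPP siRNA+nutlin, 29.5 and 11.2 FPKM with p53 siRNA+nutlin, and 11.8 and 12.6 FPKM with CTR siRNA+nutlin. Without nutlin EGR1 was 35.00 and 36.4 FPKM with p53+iASPP siRNA, 24.6 and 24.9 FPKM with iASPP siRNA, 26.4 and 27.2 FPKM with p53 siRNA, and 31.8 and 34.6 FPKM with CTR siRNA. All libraries without nutlin lay above all nutlin libraries but p53 siRNA+nutlin replicate 1. EGR1 fell with nutlin to 12.2 ± 0.58 FPKM in CTR siRNA cells, against 33.2 ± 1.98 FPKM without nutlin, a 0.367-fold FPKM ratio and a log2 change of -1.37 ± 0.32 (limma, adjusted p = 0.00895). In iASPP-depleted cells EGR1 fell with nutlin to 8.83 ± 0.93 FPKM, against 24.7 ± 0.18 FPKM without nutlin, a log2 change of -1.39 ± 0.32 (adjusted p = 0.0337). With p53+iASPP siRNA the FPKM ratio of EGR1 with nutlin over without was 0.495 (limma, adjusted p = 0.694). With p53 siRNA alone the log2 change was -0.53 ± 0.32 (adjusted p = 0.458).

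The difference in the EGR1 response to nutlin between p53 siRNA and CTR siRNA was 0.85 ± 0.45 and did not pass (adjusted p = 0.252). That difference rests on which p53 siRNA+nutlin replicate is kept, as EGR1 was 29.5 FPKM in replicate 1 and 11.2 FPKM in replicate 2. With CTR siRNA+nutlin EGR1 was 11.8 and 12.6 FPKM. Without the diverging libraries, and so with replicate 1 alone, the difference was 1.51. The EGR1 fall in CTR siRNA cells was lost without CTR siRNA replicate 2 (adjusted p = 0.0524) or CTR siRNA+nutlin replicate 1 (0.0563). The fall in iASPP-depleted cells was lost with no filter (0.0717) and without either replicate of CTR siRNA, p53 siRNA, iASPP siRNA, p53+iASPP siRNA, CTR siRNA+nutlin or iASPP siRNA+nutlin (0.0507 to 0.195), and without the diverging libraries it was -1.29 (adjusted p = 8.54e-05).

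ATF3, a bZIP factor that often represses its targets, is on chromosome 1 from 212565334 to 212620777, plus strand. ATF3 stood at 14.1 and 22.4 FPKM with p53+iASPP siRNA+nutlin, 41.1 and 34.3 FPKM with iASPP siRNA+nutlin, 10.2 and 17.5 FPKM with p53 siRNA+nutlin, and 25.7 and 29.6 FPKM with CTR siRNA+nutlin. Without nutlin ATF3 was 8.59 and 11.5 FPKM with p53+iASPP siRNA, 16.2 and 20.5 FPKM with iASPP siRNA, 7.54 and 7.83 FPKM with p53 siRNA, and 13.9 and 9.08 FPKM with CTR siRNA. The iASPP siRNA+nutlin and CTR siRNA+nutlin groups were the highest, and neither overlapped any other group. ATF3 rose with nutlin to 27.6 ± 2.77 FPKM in CTR siRNA cells, against 11.5 ± 3.39 FPKM without nutlin, a 2.41-fold FPKM ratio and a log2 change of 1.22 ± 0.28 (limma, adjusted p = 0.00857). In iASPP-depleted cells its nutlin change was 1.00 ± 0.28 (adjusted p = 0.0666), and both nutlin libraries lay above both without nutlin. In p53-depleted cells the nutlin change of ATF3 was 0.73 ± 0.28 (adjusted p = 0.269) and with both siRNAs 0.78 ± 0.28 (adjusted p = 0.694), again with no overlap.

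In nutlin-treated cells ATF3 was lower with p53 siRNA, at 13.9 ± 5.13 FPKM, against 27.6 ± 2.77 FPKM with CTR siRNA, a log2 change of -0.99 ± 0.28 (limma, adjusted p = 0.0284). In iASPP-depleted cells with nutlin ATF3 was also lower with p53 siRNA, at 18.3 ± 5.89 FPKM, against 37.7 ± 4.76 FPKM without it, a log2 change of -1.03 ± 0.28 (adjusted p = 0.0314). The interaction of nutlin with p53 siRNA for ATF3 was -0.49 ± 0.40 and did not pass (adjusted p = 0.458). The rise with nutlin was lost without CTR siRNA replicate 2 (adjusted p = 0.0779) or CTR siRNA+nutlin replicate 2 (0.0581). The fall with p53 siRNA under nutlin was lost with no filter (0.0579), without p53 siRNA+nutlin replicate 1 (0.211) and without either replicate of CTR siRNA+nutlin (0.0864 and 0.134). The fall in iASPP-depleted cells was lost with no filter (0.0643), without iASPP siRNA+nutlin replicate 1 (0.196) and without p53+iASPP siRNA+nutlin replicate 1 (0.214). Without the diverging libraries both of these ATF3 differences were larger, at -1.35 and -1.48.

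IER2 is a short-lived nuclear protein encoded by an immediate-early gene on chromosome 19 from 13150415 to 13154908, plus strand. IER2 stood at 33.0 and 30.2 FPKM with p53+iASPP siRNA+nutlin, 20.7 and 26.0 FPKM with iASPP siRNA+nutlin, 41.5 and 32.7 FPKM with p53 siRNA+nutlin, and 25.8 and 26.7 FPKM with CTR siRNA+nutlin. Without nutlin IER2 was 49.97 and 46.9 FPKM with p53+iASPP siRNA, 29.04 and 33.5 FPKM with iASPP siRNA, 33.9 and 34.8 FPKM with p53 siRNA, and 44.5 and 40.4 FPKM with CTR siRNA. The p53+iASPP siRNA group was the highest and stood apart from all others, and the lowest groups were the nutlin groups with iASPP siRNA or CTR siRNA. IER2 fell with nutlin to 26.3 ± 0.61 FPKM in CTR siRNA cells, against 42.4 ± 2.89 FPKM without nutlin, a log2 change of -0.67 ± 0.14 (limma, adjusted p = 0.00578). In nutlin-treated cells IER2 was higher with p53 siRNA, at 37.1 ± 6.19 FPKM, against 26.3 ± 0.61 FPKM with CTR siRNA, a log2 change of 0.47 ± 0.14 (adjusted p = 0.0368). With p53 siRNA the nutlin change of IER2 was 0.10 ± 0.14 (adjusted p = 0.787), and it differed from that with CTR siRNA by an interaction of 0.77 ± 0.20 (adjusted p = 0.0371).

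The IER2 fall with nutlin was lost without CTR siRNA replicate 1 (adjusted p = 0.0548). The IER2 difference with p53 siRNA under nutlin was lost under median-of-ratios scaling (log2 change 0.26, adjusted p = 0.195), without p53 siRNA+nutlin replicate 1 (0.234), and without either replicate of CTR siRNA+nutlin, CTR siRNA, p53 siRNA or p53+iASPP siRNA (0.0505 to 0.163). With the diverging libraries left out that IER2 difference was 0.64 (adjusted p = 0.00366) and the IER2 interaction 0.93 (adjusted p = 0.00318). The IER2 interaction was lost under that scaling (0.0918), with no filter (0.0507), without p53 siRNA+nutlin replicate 1 (0.103), and without either replicate of CTR siRNA, p53 siRNA, iASPP siRNA, p53+iASPP siRNA or CTR siRNA+nutlin (0.0505 to 0.134).

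IER3, an ERK substrate that restrains apoptosis, is on chromosome 6 from 30743199 to 30744554, minus strand. IER3 stood at 386 and 419 FPKM with p53+iASPP siRNA+nutlin, 205 and 433 FPKM with iASPP siRNA+nutlin, 474 and 506 FPKM with p53 siRNA+nutlin, and 437 and 434 FPKM with CTR siRNA+nutlin. Without nutlin IER3 was 396 and 385 FPKM with p53+iASPP siRNA, 310.5 and 344 FPKM with p53 siRNA, 260.4 and 247 FPKM with iASPP siRNA, and 411 FPKM in both libraries with CTR siRNA. IER3 was lower with iASPP siRNA than with CTR siRNA in every library without nutlin, but the log2 change of -0.69 ± 0.24 did not pass (adjusted p = 0.0957). The iASPP siRNA+nutlin replicates differed by a log2 of 1.07, the largest difference of IER3 within a group, with replicate 2 close to the control and replicate 1 far below it. The nutlin change of IER3 in iASPP-depleted cells was 0.23 with both replicates, 0.77 without replicate 1 of iASPP siRNA+nutlin (limma, adjusted p = 0.00946) and -0.30 without its replicate 2 (adjusted p = 0.0393). None of the IER3 differences passed the threshold with all libraries.

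**Figure D2:**
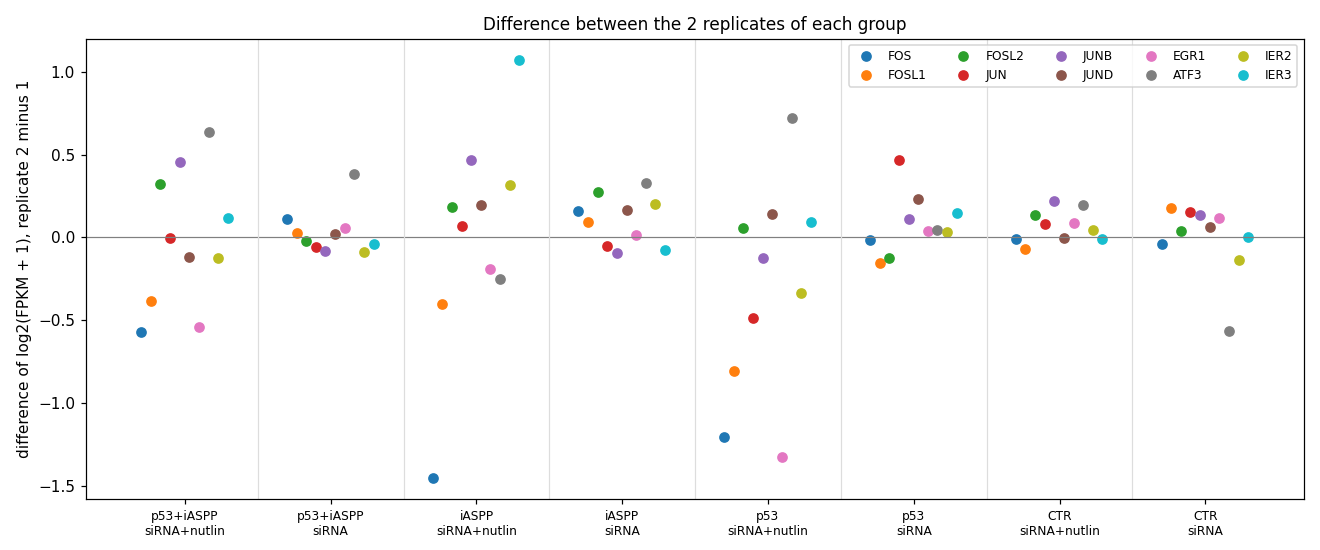
Difference between replicates, replicate 2 minus replicate 1, on log2(FPKM + 1) (y axis) for each member (coloured points) in each group (x axis). FOS reaches -1.45 and IER3 1.07 with iASPP siRNA+nutlin and EGR1 -1.32 with p53 siRNA+nutlin, while most points of the groups without nutlin lie near 0.

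Set together by comparison, the members that nutlin changed in CTR siRNA cells were ATF3, which rose, and JUN, EGR1 and IER2, which fell. These 4 of 10 members called stand beside 26.8% of all tested genes, of which 5.87% were higher and 21% lower. The same 4 had an unadjusted p under 0.05, beside 39.3%, and without the diverging libraries FOS was called as well, at -0.24 (adjusted p = 0.0256), beside 41.1% of all genes. In 8 members the 2 libraries of each group did not overlap, beside 72% of all tested genes. The median log2 change was -0.01 over the members and -0.20 over all tested genes. Median-of-ratios scaling is built to remove such a shift of the whole table, which was 0.00 under it. There JUND was called higher (log2 change 0.43, adjusted p = 0.0203), JUN was no longer called, and ATF3, EGR1 and IER2 kept their calls and directions. The FOS change of -0.24 became -0.004 under that scaling with all libraries (limma, adjusted p = 0.998). A smaller share of cells expressing a gene and less of its RNA per cell cannot be told apart in these bulk samples.

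With p53 siRNA 0 members were called with nutlin (limma), beside 0.225% of all genes. An unadjusted p under 0.05 was found for 4 members, beside 15.1%, and 4 did not overlap, beside 47.1%. Those 4 members, JUN, JUNB, ATF3 and IER3, all lay higher with nutlin, as did 21.2% of all tested genes without overlap. With iASPP siRNA 1 member was called, EGR1, beside 5.21% of all genes, 5 had an unadjusted p under 0.05, beside 22.1%, and 5 did not overlap, beside 48.7%. With p53+iASPP siRNA 0 members were called (limma), beside 0% of all genes, 5 had an unadjusted p under 0.05, beside 7.06%, and 8 did not overlap, beside 41.3%. Without the diverging libraries the counts called were 2 with p53 siRNA, FOS and IER3, beside 2.61% of all genes, and 6 with iASPP siRNA, beside 27.7%. With p53+iASPP siRNA they were 2, FOS and EGR1, beside 0.506%. The FOS value with p53 siRNA rests on which replicate is kept: its nutlin change was -0.03 with all libraries, 0.57 without the diverging libraries (adjusted p = 0.0218) and -0.63 without p53 siRNA+nutlin replicate 1 (adjusted p = 0.502). With iASPP siRNA the nutlin change of FOS was -0.67 with all libraries and 0.05 without the diverging libraries, where it was not called (adjusted p = 0.676).

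**Figure D3:**
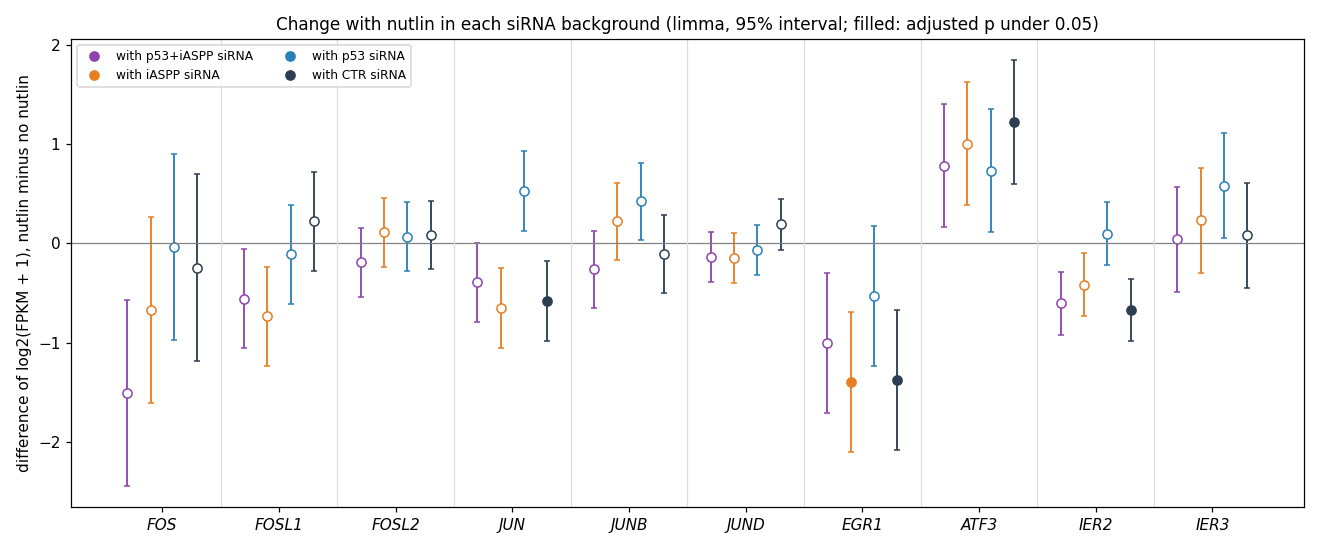
Change with nutlin on log2(FPKM + 1), nutlin minus no nutlin (y axis), for each member (x axis) with p53+iASPP, iASPP, p53 and CTR siRNA; bars are 95% intervals of limma and filled points passed an adjusted p of 0.05. Filled are JUN (-0.58), EGR1 (-1.37), ATF3 (1.22) and IER2 (-0.67) with CTR siRNA and EGR1 (-1.39) with iASPP siRNA.

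Among the siRNA comparisons without nutlin, iASPP siRNA in control cells gave 2 called members, FOSL1 and JUND, beside 7.86% of all tested genes. There 6 members had an unadjusted p under 0.05, beside 26.6%, 9 did not overlap, beside 66.7%, and 7 were called without the diverging libraries, beside 27%. In p53-depleted cells iASPP siRNA gave 1 called member, JUN, beside 0.947%, and 4 at an unadjusted p under 0.05, beside 16.5%. There 9 did not overlap, beside 57.4%, 8 of them higher, beside 28.3%, and 6 were called without the diverging libraries, beside 11.9%. p53 siRNA gave 0 called members in control cells (limma), beside 0.0375%, 1 at an unadjusted p under 0.05, beside 12.9%, and 9 not overlapping, beside 54%. It gave 3 without the diverging libraries, FOS, FOSL1 and IER3, beside 7.89%. In iASPP-depleted cells p53 siRNA also gave 0 called members (limma), beside 0.975%, 4 at an unadjusted p under 0.05, beside 17.7%, and all 10 not overlapping, beside 61.5%. It gave 6 without the diverging libraries, beside 15.9%. The lowest adjusted p there was that of IER2, 0.0700, at a log2 change of 0.62 ± 0.14.

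**Figure D4:**
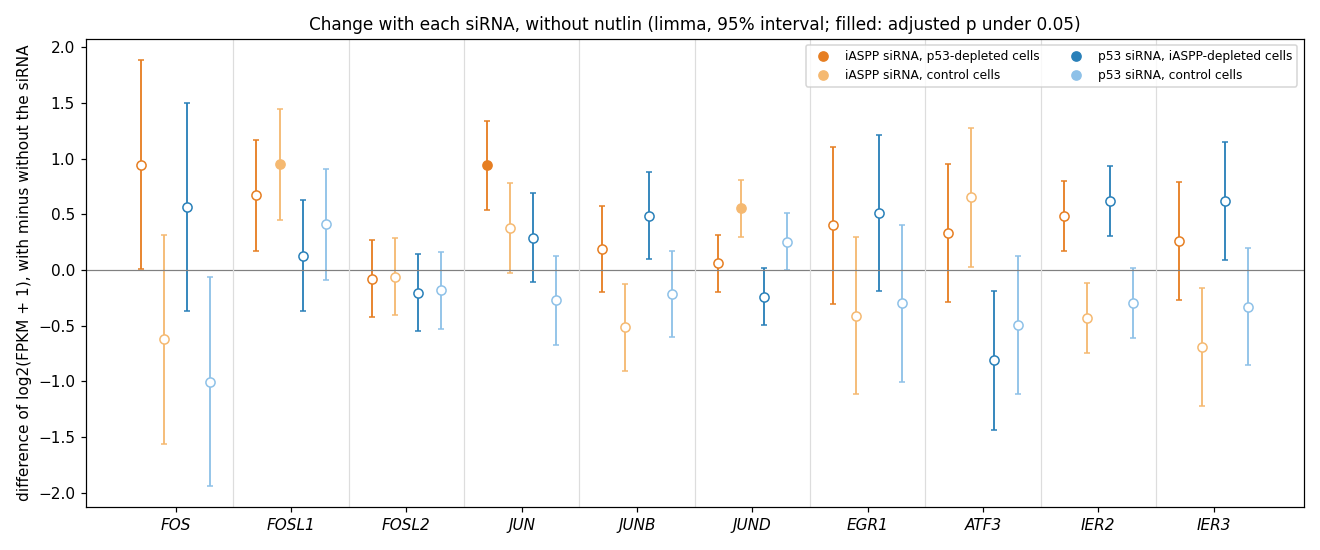
Change with each siRNA in cells without nutlin on log2(FPKM + 1), with minus without that siRNA (y axis), for each member (x axis); bars are 95% intervals of limma and filled points passed an adjusted p of 0.05. For FOS, JUNB, EGR1, IER2 and IER3 the points lie below 0 in control cells (light) and above 0 in cells depleted of the other protein (dark), with FOS at -0.62 and 0.95 for iASPP siRNA; of these 5 no point is filled.

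For FOS, EGR1, JUNB, IER2 and IER3, each single siRNA lay below the control and the combined siRNA lay near or above it. These 5 were picked out for that pattern after their values were seen, so the interaction of p53 siRNA with iASPP siRNA restates it and is no independent test. The interaction was 1.57 ± 0.60 for FOS (adjusted p = 0.275), 0.95 ± 0.34 for IER3 (0.256), 0.91 ± 0.20 for IER2 (0.104), 0.81 ± 0.45 for EGR1 (0.431) and 0.70 ± 0.25 for JUNB (0.251). Thus 0 members were called (limma), beside 0.0281% of all tested genes, and 5 members, FOS, JUNB, JUND, IER2 and IER3, had an unadjusted p under 0.05, beside 14.6%. The median interaction was 0.63 over the members and 0.10 over all tested genes. With the diverging libraries left out 6 were called, FOS at adjusted p = 0.000337, IER3 at 0.000827, IER2 at 0.00591, EGR1 at 0.00435, JUNB at 0.0205 and JUND, with an interaction of -0.49, at 0.0482, and the share of all genes called was then 11.7%. IER2 and IER3 were also called without iASPP siRNA+nutlin replicate 1 or replicate 2 alone, IER2 at adjusted p = 0.0264 and 0.0262 and IER3 at 0.00590 and 0.00606. All 4 groups in this interaction were close pairs, and the diverging libraries entered it only through the shared estimate of the spread. With nutlin the interaction gave 0 called members (limma), beside 0% of all genes, and 0 at an unadjusted p under 0.05, beside 7.26%. Without the diverging libraries the IER3 interaction with nutlin was 0.79, against 0.26 with all libraries. The first value uses iASPP siRNA+nutlin replicate 1 alone, where IER3 was 205 FPKM, against 433 FPKM in replicate 2.

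In nutlin-treated cells p53 siRNA gave 3 called members against CTR siRNA, JUN and IER2 higher and ATF3 lower, beside 22.5% of all tested genes. The same 3 had an unadjusted p under 0.05, beside 36.3%, 7 did not overlap, beside 64%, and 6 were called without the diverging libraries, beside 33.6%. The median log2 change over all tested genes was 0.19 there. Median-of-ratios scaling, built to remove such a shift, left 0.00, and under it JUN and ATF3 kept their calls and IER2 did not. In iASPP-depleted cells with nutlin p53 siRNA gave 1 called member, ATF3, beside 15.6%, and 5 at an unadjusted p under 0.05, beside 30.4%. There 6 did not overlap, beside 49.4%, and 6 were called without the diverging libraries, beside 33.8%. iASPP siRNA gave 0 called members in control cells with nutlin (limma), beside 0.769%, 2 at an unadjusted p under 0.05, beside 15.9%, and 6 not overlapping, beside 42.1%. With the diverging libraries left out it gave 3, FOS, EGR1 and IER3, beside 15.5%. The FOS change there was -1.05 with all libraries, -0.33 without the diverging libraries and -1.78 without iASPP siRNA+nutlin replicate 1. The change of IER3 was -0.55 with all libraries and -1.08 without the diverging libraries, and so with iASPP siRNA+nutlin replicate 1 alone. IER3 was 205 FPKM in that replicate and 433 FPKM in replicate 2, against 437 and 434 FPKM with CTR siRNA+nutlin. In p53-depleted cells with nutlin iASPP siRNA gave 0 called members (limma), beside 0.00938%, 1 at an unadjusted p under 0.05, beside 4.64%, and 3 not overlapping, beside 25.9%. The FOS change there rests on which replicate is kept. It was -0.52 with all libraries, -1.12 without p53 siRNA+nutlin replicate 2 and 0.08 without p53 siRNA+nutlin replicate 1. Leaving out the diverging libraries gave 2, FOS and JUNB, beside 2.98%. Nutlin by p53 siRNA gave 2 called members, JUN and IER2, beside 9.75%, the same 2 at an unadjusted p under 0.05, beside 27.4%, and 6 without the diverging libraries, beside 24.4%. Nutlin by iASPP siRNA gave 0 (limma), beside 1.02%, 1 at an unadjusted p under 0.05, beside 18.8%, and 2 without the diverging libraries, FOSL1 and IER3, beside 8.52%, where the IER3 interaction was -0.39, against 0.15 with all libraries. The IER3 interaction of -0.39 likewise uses only replicate 1 of iASPP siRNA+nutlin. These comparisons share libraries, so their counts are not independent.

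The members' group means moved together in some pairs and apart in others. Over the 8 group means on log2(FPKM + 1), Pearson's r was 0.910 between EGR1 and IER2, with 0.927 in replicate 1 and 0.887 in replicate 2, and it was 0.874 between JUNB and IER3. ATF3 ran opposite to EGR1, with r = -0.889, and to IER2, with r = -0.850. These values describe 8 groups that share the same design and libraries. The genes nearest to a member in pattern, among those with a range of at least 1 in log2, were STK17A (r = 0.971) and GJB5 (0.9699) for ATF3, POLR2I (0.972) for EGR1, ZNF620 (0.980) for IER2, MT1X (0.962) for JUN and TSTA3 (0.960) for FOSL1.

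Around the members, 7 lists of related genes were read. The calls of listed genes are those of the fit with all 16 libraries, and no other setting is given for them. Of 13 tested AP-1 bZIP partners only NFIL3 was called with nutlin in CTR siRNA cells, beside 26.8% of all tested genes, and the median log2 change was -0.03 over that list and -0.20 over all tested genes. NFIL3, a bZIP repressor, fell to 8.12 ± 1.11 FPKM with nutlin, against 22.8 ± 1.68 FPKM without it, a log2 change of -1.39 ± 0.21 (limma, adjusted p = 0.000666). It also fell with iASPP siRNA without nutlin, to 11.6 ± 0.08 FPKM, against 22.8 ± 1.68 FPKM with CTR siRNA (adjusted p = 0.0267). Of 6 tested SRF and TCF factors 0 were called with nutlin in CTR siRNA cells (limma), beside 26.8% of all tested genes. With iASPP siRNA in control cells without nutlin 0 were called as well, beside 7.86%. The median log2 change of the list was -0.02 and 0.33 in those comparisons, and -0.20 and -0.09 over all tested genes.

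Of 33 tested other immediate-early genes 5 rose and 6 fell with nutlin in CTR siRNA cells, beside 5.87% higher and 21% lower of all tested genes. BTG2, a p53 target that limits proliferation, rose to 44.3 ± 0.18 FPKM, against 7.53 ± 0.05 FPKM without nutlin (limma log2 change 2.41 ± 0.32, adjusted p = 0.000306). The polo-like kinase gene PLK3 rose to 34.1 ± 1.08 FPKM, against 8.04 ± 0.55 FPKM (adjusted p = 0.000128). HES1, a Notch target, fell to 4.21 ± 0.055 FPKM, against 10.3 ± 0.78 FPKM (adjusted p = 0.0498). With iASPP siRNA in control cells without nutlin 5 of the 33 rose and 2 fell, beside 7.86% of all tested genes called. BTG2 rose there to 58.0 ± 1.49 FPKM, against 7.53 ± 0.05 FPKM with CTR siRNA.

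Of 21 tested ERK feedback and output genes 4 rose and 6 fell with nutlin in CTR siRNA cells, beside 26.8% of all tested genes called. AREG, an EGF receptor ligand, rose to 984 ± 59.8 FPKM, against 344 ± 1.71 FPKM without nutlin (limma, adjusted p = 2.97e-05), and ETV5, an ERK-induced ETS factor, fell to 7.61 ± 0.35 FPKM, against 18.8 ± 2.02 FPKM (adjusted p = 0.0113). CCND1, the gene of cyclin D1 and an AP-1-responsive gene, rose with iASPP siRNA to 245 ± 2.50 FPKM, against 63.4 ± 0.47 FPKM with CTR siRNA (log2 change 1.93 ± 0.12, adjusted p = 6.5e-05). The iASPP siRNA effect on CCND1 was smaller in p53-depleted cells, by an interaction of -1.48 ± 0.17 (adjusted p = 0.0183). Of 18 tested AP-1 target genes 3 rose and 1 fell with nutlin in CTR siRNA cells (limma), near the 26.8% of all tested genes called. The median log2 change over these target genes was 0.15 and that over all tested genes -0.20.

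Of 27 tested MAP kinase components 3 rose and 8 fell with nutlin in CTR siRNA cells, beside 5.87% higher and 21% lower of all tested genes. MAPK9, which encodes JNK2, fell to 3.48 ± 0.80 FPKM, against 9.63 ± 0.90 FPKM without nutlin (limma, adjusted p = 0.000544), and MAPK13, a p38 kinase gene, rose to 13.0 ± 0.17 FPKM, against 6.79 ± 0.32 FPKM (adjusted p = 0.00302). Of 13 tested stress genes related to ATF3, 1 rose and 2 fell with nutlin, near the 26.8% of all tested genes called. SESN2, a p53 and ATF4 target that restrains mTORC1, rose to 10.1 ± 0.49 FPKM, against 2.97 ± 0.38 FPKM without nutlin (adjusted p = 0.00476). With iASPP siRNA the same list had 1 rise and 1 fall, beside 7.86% of all tested genes called. There ASNS, the ATF4 target asparagine synthetase, fell to 25.4 ± 4.20 FPKM, against 90.4 ± 5.68 FPKM with CTR siRNA (adjusted p = 0.00837).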

How the data were processed

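FPKM values of 20271 genes in 16 libraries were used as deposited by the authors. The submitters' processing notes name edgeR, with no version, and the build hg38 (GRCh38). The sources used here do not give the aligner, the read assignment, its use of strand or the annotation. Symbols that were blank (210) or turned into dates (28) were filled from GENCODE release 29. No raw counts were at hand, so only relative depth was read, from the steps of low values.

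Genes whose mean reached 1 FPKM were tested on log2(FPKM + 1) by limma 3.58.1 under R 4.3.3, with an intensity trend, 1 mean for each of 8 groups, 8 residual and 3.15 prior degrees of freedom. Calls are at a Benjamini-Hochberg adjusted p under 0.05 within each of 16 comparisons, 4 of them interactions. The fit takes 1 spread per gene over all groups, although replicates lay further apart in the diverging groups. The error rate of the calls under such unequal spread was not tested. With 2 libraries against 2 the smallest exact p is 0.333, so no exact test was used.

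All 10 members were described in every comparison. From 7 companion lists the called genes with the largest changes, up to 4 a list and comparison, were candidates to be named, and examples are printed. The level of 1 siRNA target is not reported here. Members, lists and tests were chosen with earlier results of these data known. Same-numbered replicates were treated as unpaired, because the labels state no pairing. Their deviations correlated by -0.0317 to 0.304 over 28 group pairs, 3 of them above 0.1, which cannot settle whether they were paired. Alternatives were a pseudocount of 0.1, no filter, median-of-ratios scaling, the replicate block and leaving out each library.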

Additional observations from a re-analysis of the deposited data

Results flagged for a closer look

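JUN was picked out because its response to nutlin differed between p53 siRNA and CTR siRNA in a test of the difference itself. The nutlin change was 0.53 with p53 siRNA and -0.58 with CTR siRNA, and the interaction was 1.11 on the log2 scale (limma, adjusted p = 0.0229). IER2 was picked out in the same way, with nutlin changes of 0.10 with p53 siRNA and -0.67 with CTR siRNA and an interaction of 0.77 (adjusted p = 0.0371). Over 4 interactions and 10 members no other difference passed. p53 siRNA+nutlin replicate 2 was 1 of the diverging libraries. Without those libraries the interactions were 1.35 for JUN and 0.93 for IER2.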

How the results depend on the processing

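None of the 14 calls changed sign under any alternative. Of the 146 differences not called, 11 changed sign under median-of-ratios scaling, 0 to 11 with 1 library left out, and 20 without the 3 diverging libraries. Of those 20, 3 were then called: nutlin with p53 siRNA for FOS, and nutlin with iASPP siRNA and its interaction for IER3. In all, 55 differences were newly called without the 3 libraries, and 15 of these moved by over 1.5 times. Counts below are members called of 10 per comparison, and those given with 1 library left out are the lowest and highest counts. The share of all tested genes called, which also moves with the setting, is not printed beside them here. The counts therefore show how calls depend on the setting, not a trait of the members. With nutlin added, CTR siRNA cells gave 1 to 4 and iASPP siRNA cells 0 to 4 with 1 library left out, p53 siRNA cells 0 to 1 and p53+iASPP siRNA cells 0. Without nutlin the ranges were 0 to 5 for iASPP siRNA in control cells, 0 to 1 for iASPP siRNA in p53-depleted cells, 0 to 2 for p53 siRNA in iASPP-depleted cells and 0 for p53 siRNA in control cells. With nutlin they were 0 to 4 for p53 siRNA in either background, 0 to 1 for iASPP siRNA in control cells and 0 in p53-depleted cells. The interactions ranged from 0 to 3 for nutlin by p53 siRNA, 0 to 1 for nutlin by iASPP siRNA, and 0 to 2 without and 0 to 1 with nutlin for p53 by iASPP siRNA.

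Leaving out the 3 diverging libraries and averaging each close pair were chosen after seeing the data. The first takes the spread from the close pairs alone and the second from the diverging pairs alone. Without the 3 libraries 5 members were called for nutlin with CTR siRNA, 2 with p53 siRNA, 6 with iASPP siRNA and 2 with p53+iASPP siRNA. The siRNA comparisons without nutlin then gave 3 for p53 in control cells, 6 for p53 in iASPP-depleted cells, 7 for iASPP in control cells and 6 for iASPP in p53-depleted cells. With nutlin they gave 6, 6, 3 and 2 in the same order, and the interactions 6 for nutlin by p53, 2 for nutlin by iASPP, 6 for p53 by iASPP without nutlin and 1 with nutlin. With close pairs averaged 0 were called (limma) in every comparison, and the lowest adjusted p over the 14 calls was 0.195.

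With no filter the count was 0 for nutlin with iASPP siRNA, 1 for iASPP siRNA in control cells and 0 in p53-depleted cells without nutlin, 0 for p53 siRNA in iASPP-depleted cells with nutlin and 1 for nutlin by p53 siRNA, where median-of-ratios scaling also gave 1. For p53 siRNA in iASPP-depleted cells with nutlin the pseudocount of 0.1, median-of-ratios scaling and the replicate block each gave 2, the added call being FOSL2. The replicate block gave 0 for iASPP siRNA in p53-depleted cells without nutlin, where the adjusted p of JUN was 0.0536, and left the other counts as they were. The cause of these changes was not tested. With 2 libraries per group and unknown absolute depth, small changes of low genes such as FOSL2 and JUN could be missed.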
